A study of Mus musculus with 4 samples.

Results

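Pyroptosis and necroptosis are forms of programmed cell death in which the plasma membrane is breached and the cell contents leak out. A set of 10 genes of these pathways was chosen by symbol for their known roles, with earlier results of these data known. They were the inflammatory caspase genes Casp1 and Casp4, Casp8, the gasdermin genes Gsdmd, Gsdmc2 and Gsdmc4, the kinase genes Ripk1 and Ripk3, Mlkl, and the cytokine gene Il18. All 10 were found among the 17762 genes of the deposited tables, and all 10 passed the filter on low counts. Polyadenylated RNA came from adenomas of C57BL/6 mice aged 110 days that carry ApcMin, a mutant allele of the tumour suppressor gene Apc. Of the 4 libraries, 2 carried the genotype ApcMin Strap WT (called WT) and 2 the genotype ApcMin Strap KO (called KO), which the series also writes as ApcMin StrapIEKO, so ApcMin was shared by both groups. The sources used here do not say in which cells Strap was deleted, which part of it was removed or whether animals were pooled.

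In pyroptosis, sensor proteins assemble an inflammasome that activates caspase-1, while caspase-11, the product of Casp4 in the mouse, is activated by bacterial lipopolysaccharide in the cytosol. The active caspases cut gasdermin D, whose freed part forms pores, and caspase-1 also matures interleukin-18, a cytokine that intestinal epithelial cells make. In necroptosis, RIPK1 or the nucleic acid sensor ZBP1 engages RIPK3, which phosphorylates MLKL, and MLKL then disrupts the membrane. Caspase-8 restrains this route, and loss of caspase-8 in intestinal epithelium is known to cause necroptosis there.

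Each library held 14084831 to 15640941 expected counts. Strap, the targeted gene, had 2445 and 1724 counts in WT replicates 1 and 2 and 300 and 364 counts in KO replicates 1 and 2. Levels are given as CPM (counts scaled to a common library size, with TMM factors), in the order WT replicate 1, WT replicate 2, KO replicate 1 and KO replicate 2. Each ± is an SD over n = 2 libraries, and FPKM, which also allows for transcript length, is used to compare genes with each other. Markers of epithelium were listed in all 4 libraries, with summed levels of 10518 to 13944 CPM over 8 genes, against 15.8 to 26.0 CPM over 8 macrophage markers and 1.91 to 5.97 CPM over 6 neutrophil markers. The macrophage marker Adgre1 was not listed in WT replicate 2 and KO replicate 1, and the neutrophil marker S100a8 was listed in WT replicate 1 alone. The labelled tissue is colon adenoma, yet 5 colon markers summed to 0.205 to 5.71 CPM, and 5 small intestine markers to 7243 to 13707 CPM. Libraries also differed in Xist, at 968 and 197 CPM in WT and KO replicates 1 and under 1 CPM (0.195 and 0.954) in both replicates 2, so each genotype held 1 library of each kind. In bulk tissue, fewer cells of a type and less RNA per cell cannot be told apart.

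In the comparison of KO with WT, the necroptosis genes Mlkl and Ripk3 were higher in both KO libraries, the pyroptosis genes overlapped between the genotypes, and Gsdmc2 and Gsdmc4 varied most within each genotype. No member passed edgeR's quasi-likelihood test in either direction (adjusted p under 0.05 over all 12769 genes). The background was as sparse, with 0.00783% of all genes called higher, which is the gene Ifi44 alone, and 0% called lower. Strap itself was not called by edgeR, at a log2 fold change of -2.57 (edgeR adjusted p = 0.0942, DESeq2 adjusted p = 8.2e-14). At an unadjusted edgeR p under 0.05, 2 of 10 members were higher (7.08% of all genes) and 0 were lower (8.69%). DESeq2 called 1 of 10 higher (1.82%), which was Mlkl, and 0 lower (3.32%). KO and WT did not overlap in 3 members, with KO above in 2 of 10 (25.5% of all genes) and below in 1 (24.6%), so neither share was above the background. The median log2 fold change of the 10 members was 0.01, against 0.00 over all genes tested.

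By length-scaled level, averaged over the 4 libraries, the order ran from Gsdmd at 120 FPKM and Casp1 at 98.7 through Gsdmc4 at 70.4, Gsdmc2 at 52.5, Casp8 at 52.0, Il18 at 41.1, Ripk3 at 32.5 and Casp4 at 17.5 to Mlkl at 12.5 and Ripk1 at 12.3 FPKM. The places of Gsdmc4 and Gsdmc2 in this order rested on single libraries, since each ranged from under 15 FPKM (9.23 and 8.97 at the lowest) to over 100 (185 and 137 at the highest). Gsdmd and Casp1 overlapped in range, with 94.7 to 154 FPKM for Gsdmd and 68.7 to 121 FPKM for Casp1. Mlkl and Ripk1 stood at nearly the same mean level, but Ripk1 kept within 10.9 to 13.3 FPKM while Mlkl ran from 6.04 to 23.6 FPKM.

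**Figure D1:**
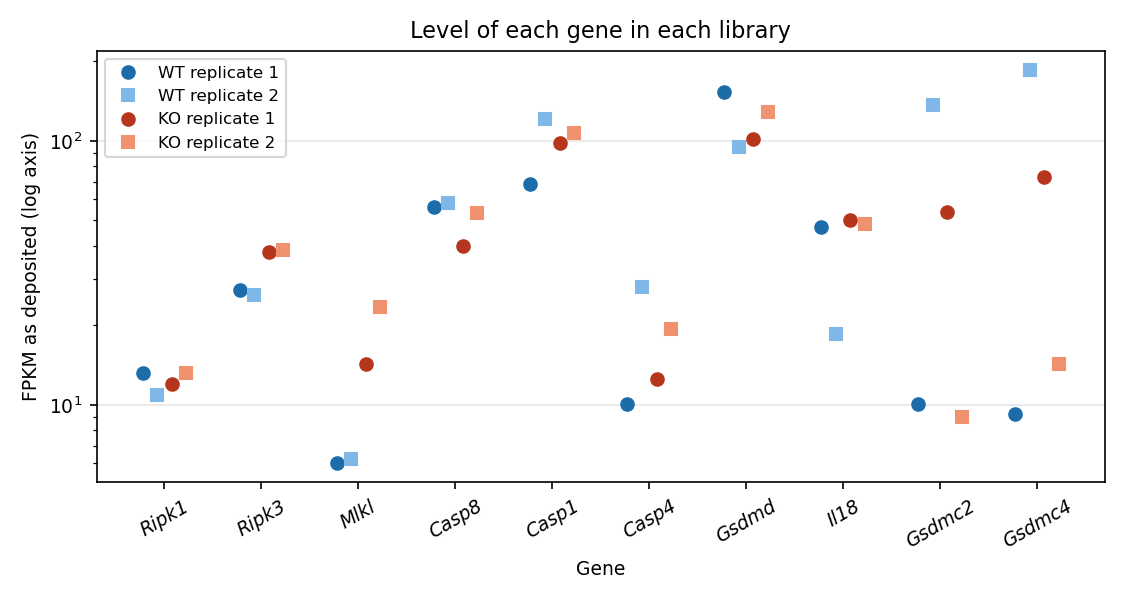
Deposited FPKM (log axis) of the 10 genes in each of the 4 libraries, with 1 point per library. Mlkl and Ripk3 have both KO points above both WT points, as Il18 does by a narrow margin, while Gsdmc2 and Gsdmc4 are highest in WT replicate 2 and lowest in WT replicate 1 and KO replicate 2.

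Mlkl encodes the membrane-disrupting executioner of necroptosis and lies on chromosome 8 from 111311255 to 111338479 in mm10. It stood at 11.7, 12.1, 29.8 and 44.0 CPM, so the WT libraries nearly coincided and each KO library was more than 2-fold above them. KO averaged 36.9 CPM with an SD of 10.02, against 11.9 ± 0.277 CPM in WT, and so was 3.10-fold higher (log2 fold change 1.63, SE 0.28, 95% interval 0.95 to 2.32). The unadjusted p was 0.00114 and the adjusted p was 0.131 in edgeR, and the adjusted p was 5.3e-04 in DESeq2, the lowest of a range up to 0.66 over the alternatives. Leaving out any 1 library kept the log2 fold change between 1.31 and 1.89. Libraries of the same number, which share their Xist level class, gave a log2 ratio of 1.35 for replicates 1 and 1.86 for replicates 2.

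Ripk3 encodes the kinase that phosphorylates MLKL and lies on chromosome 14 from 55784995 to 55788857. It stood at 49.9, 47.6, 74.7 and 68.4 CPM, with no overlap between the genotypes and little spread within each. KO averaged 71.5 ± 4.46 CPM against 48.7 ± 1.62 CPM in WT, 1.47-fold higher (log2 fold change 0.55, SE 0.19, 95% interval 0.10 to 1.01). The unadjusted p was 0.0249 and the adjusted p was 0.271 in edgeR, and the adjusted p was 0.241 in DESeq2, within a range of 0.187 to 0.71 over the alternatives. The span of a long non-coding RNA gene, Gm32092, overlaps that of Ripk3 in RefSeq, and whether their exons overlap was not checked. In any shared exon, their reads could not be separated without strand information.

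Ripk1 encodes the kinase and scaffold of the tumour necrosis factor receptor complex and lies on chromosome 13 from 34002225 to 34035170. Its levels of 58.5, 48.0, 57.2 and 56.6 CPM placed both KO libraries between the WT libraries. The log2 fold change was 0.10 (95% interval -0.39 to 0.59, edgeR adjusted p = 0.842). Ripk1 overlaps Serpinb6a at one end.

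Casp8, the caspase gene that acts in death receptor signalling and restrains RIPK3, lies on chromosome 1 from 58795233 to 58847503. It was at 136, 142, 106 and 124 CPM, the single member with both KO libraries below both WT libraries. KO held 82.6% of the WT level (log2 fold change -0.28, 95% interval -0.76 to 0.21, edgeR adjusted p = 0.529).

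**Figure D2:**
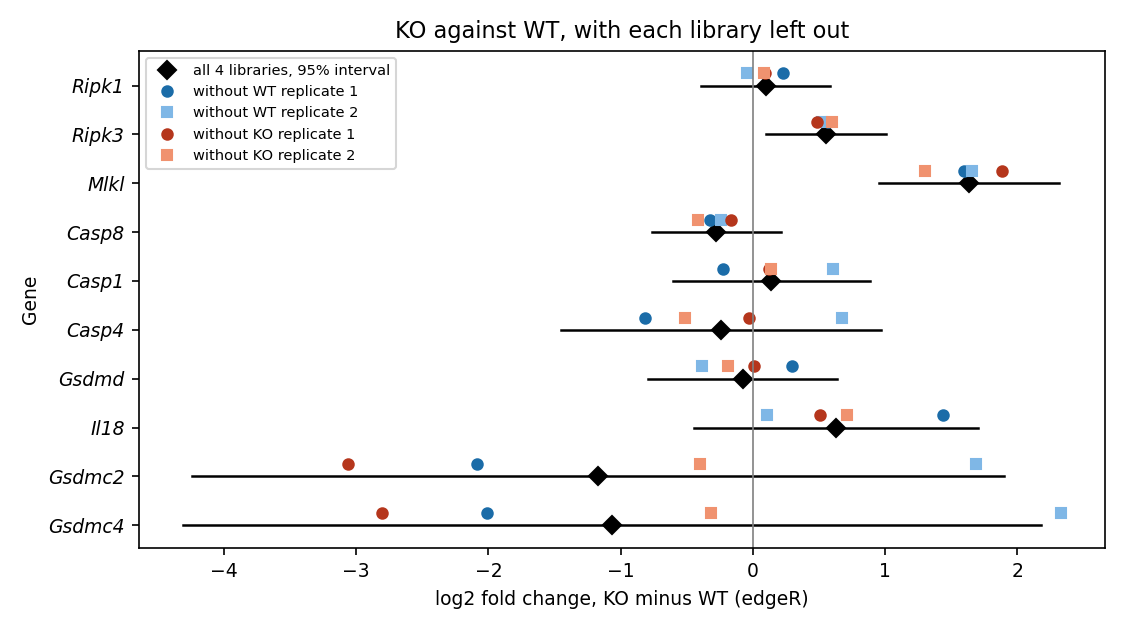
log2 fold change of KO over WT in edgeR for the 10 genes, with diamonds and lines for the estimate and 95% interval from all 4 libraries and coloured points for fits without 1 library. The points for Mlkl (1.31 to 1.89) and Ripk3 (0.49 to 0.60) stay close together, while those for Gsdmc4 run from -2.81 to 2.33.

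The promoters of Mlkl and Ripk3 are shown because these genes had the smallest p among the members, that of Ripk1 because it is the member with a match to the interferon-type motif, and that of Isg15 as an example from the interferon list. Each sequence is from RefSeq (GRCm38.p6), runs 5′ to 3′ on the strand of the gene from 250 bases before to 20 after an annotated start, and has matches to the motifs below in capitals. Mlkl is at chr8:111338186-111338455 (minus strand), Ripk3 at chr14:55788838-55789107 (minus), the second of the 2 Ripk1 entries at chr13:34002624-34002893 (plus) and Isg15 at chr4:156200799-156201068 (minus).
Mlkl: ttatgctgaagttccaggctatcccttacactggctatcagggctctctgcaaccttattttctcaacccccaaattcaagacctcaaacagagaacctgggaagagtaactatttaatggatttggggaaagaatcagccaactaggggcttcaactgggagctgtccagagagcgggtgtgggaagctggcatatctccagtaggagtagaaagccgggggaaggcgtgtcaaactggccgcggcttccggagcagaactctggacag
Ripk3: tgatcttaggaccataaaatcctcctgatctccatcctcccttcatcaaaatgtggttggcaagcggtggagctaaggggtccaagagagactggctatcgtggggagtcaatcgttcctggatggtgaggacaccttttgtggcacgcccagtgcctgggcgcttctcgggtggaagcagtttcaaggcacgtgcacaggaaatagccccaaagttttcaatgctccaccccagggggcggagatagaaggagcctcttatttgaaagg
Ripk1: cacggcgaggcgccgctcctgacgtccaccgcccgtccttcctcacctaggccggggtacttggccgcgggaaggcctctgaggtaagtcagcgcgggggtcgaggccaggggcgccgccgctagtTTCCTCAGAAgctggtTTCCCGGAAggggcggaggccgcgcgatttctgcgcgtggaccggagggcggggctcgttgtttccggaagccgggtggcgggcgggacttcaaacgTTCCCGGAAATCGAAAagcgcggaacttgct
Isg15: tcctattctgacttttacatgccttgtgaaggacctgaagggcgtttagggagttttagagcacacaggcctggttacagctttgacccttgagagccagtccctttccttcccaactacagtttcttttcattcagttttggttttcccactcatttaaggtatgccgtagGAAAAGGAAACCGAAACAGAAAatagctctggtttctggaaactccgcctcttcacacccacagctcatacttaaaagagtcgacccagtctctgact

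Motifs were searched on both strands of 300-base promoter entries, and matches were allowed to overlap. They were a GAAA pair with 2 bases between, the repeat found in interferon-stimulated response elements (3.44% of all 32851 entries), TTCNNNGAA, the STAT dimer spacing of gamma-activated sites (8.3%), and TTC and GAA with 4 bases between, the spacing preferred by STAT6 (6.95%). Of the 10 members 7 matched an entry, and Gsdmc2, Gsdmc4 and Gsdmd did not. The promoters of Mlkl and Ripk3 held no match to any of the 3 motifs. At its second entry Ripk1 held the GAAA pair once, overlapping 1 of 2 TTCNNNGAA matches, and the STAT6 spacing once. Il18 held the STAT6 spacing once, as TTCCCCAGAA. In the interferon list 7 of 10 genes with an entry held the GAAA pair. Irf1, Irf7 and Irf9 did not, and each was higher in both KO libraries. A match is a stretch of letters, and binding was not measured here. The lack of a match within these 300 bases does not show a lack of binding either.

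Casp1 encodes the inflammasome protease and lies on chromosome 9 from 5298517 to 5307281, beside Casp4 from 5308849 to 5336791. Casp1 stood at 100.2, 176, 154 and 150 CPM, with both KO libraries inside the WT range. The log2 fold change was 0.14 (95% interval -0.61 to 0.88, edgeR adjusted p = 0.851), and it turned to -0.23 without WT replicate 1. Casp4 stood at 13.8, 38.3, 18.5 and 25.6 CPM, again with the KO libraries inside the WT range. Its log2 fold change was -0.24 (95% interval -1.45 to 0.97, edgeR adjusted p = 0.839), and 0.68 without WT replicate 2. The neighbours thus shared their lowest library, WT replicate 1, and their highest, WT replicate 2. The transcript models of Casp1 and Casp4 share 0% of their 100-base stretches, 100 bases being the read length.

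Gsdmd encodes the pore-forming substrate of both caspases and lies on chromosome 15 from 75862144 to 75867408. It was at 261, 161, 188 and 212 CPM, so here WT replicate 1 was highest and WT replicate 2 lowest, the reverse of Casp1 and Casp4. The log2 fold change was -0.08 (95% interval -0.79 to 0.64, edgeR adjusted p = 0.92). It turned to 0.30 without WT replicate 1 and to 0.01 without KO replicate 1.

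Il18, on chromosome 9 from 50554700 to 50581841, was at 37.5, 14.7, 43.4 and 37.1 CPM. WT replicate 2 was low and the other 3 libraries lay close together. KO averaged 40.3 ± 4.41 CPM against 26.1 ± 16.1 CPM in WT (log2 fold change 0.63, 95% interval -0.45 to 1.70, edgeR adjusted p = 0.517). Without WT replicate 2 it was 0.10, and without WT replicate 1 it was 1.44 (edgeR adjusted p = 0.206, the lowest of a range up to 0.897). The genotypes overlapped by 37.1 against 37.5 CPM and did not overlap in FPKM or with library size alone. The gene span of Il18 overlaps those of Bco2 and Tex12 in RefSeq, and whether their exons overlap was not checked. In any shared exon, reads could not be told apart without strand information.

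Gsdmc2 and Gsdmc4 belong to a cluster of mouse gasdermin C genes on chromosome 15, with Gsdmc2 from 63824328 to 63845193 and Gsdmc4 from 63891140 to 63912319. Gasdermin C genes are known to be active in intestinal epithelium and to be induced there by type 2 cytokines acting through STAT6. Gsdmc2 stood at 21.9, 297, 122 and 19.1 CPM and Gsdmc4 at 18.5, 370, 158 and 27.7 CPM. Both were high in WT replicate 2, intermediate in KO replicate 1 and low in the remaining library of each genotype. The WT libraries thus differed 13.5-fold in Gsdmc2 and 20.03-fold in Gsdmc4, and the KO libraries 6.41-fold and 5.70-fold.

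The log2 fold change was -1.17 for Gsdmc2 (95% interval -4.24 to 1.90, edgeR adjusted p = 0.677) and -1.06 for Gsdmc4 (95% interval -4.31 to 2.18, edgeR adjusted p = 0.724). Without WT replicate 2 these became 1.69 and 2.33, so the direction rested on that library. Replicates 1 gave log2 ratios of KO to WT of 2.48 and 3.10, and replicates 2 gave -3.96 and -3.74. The difference between genotypes was therefore smaller than the spread within each.

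RSEM divides reads between the gasdermin C copies, and 28.6% of the 100-base stretches of the Gsdmc2 transcript model and 20.2% of those of Gsdmc4 also occur in another copy. Counts of Gsdmc, Gsdmc2, Gsdmc3 and Gsdmc4 were therefore summed as well. The sum was 43.8, 795, 316 and 50.8 CPM, with an 18.1-fold gap between the WT libraries, so the pattern over libraries did not depend on how reads were divided within the cluster. The sum had a log2 fold change of -1.20 (SE 1.32, edgeR adjusted p = 0.688). Gsdmc4 took 42.2% to 54.6% of the sum, Gsdmc2 37.4% to 50.1%, Gsdmc3 7.47% to 15.9% and Gsdmc at most 0.368%.

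**Figure D3:**
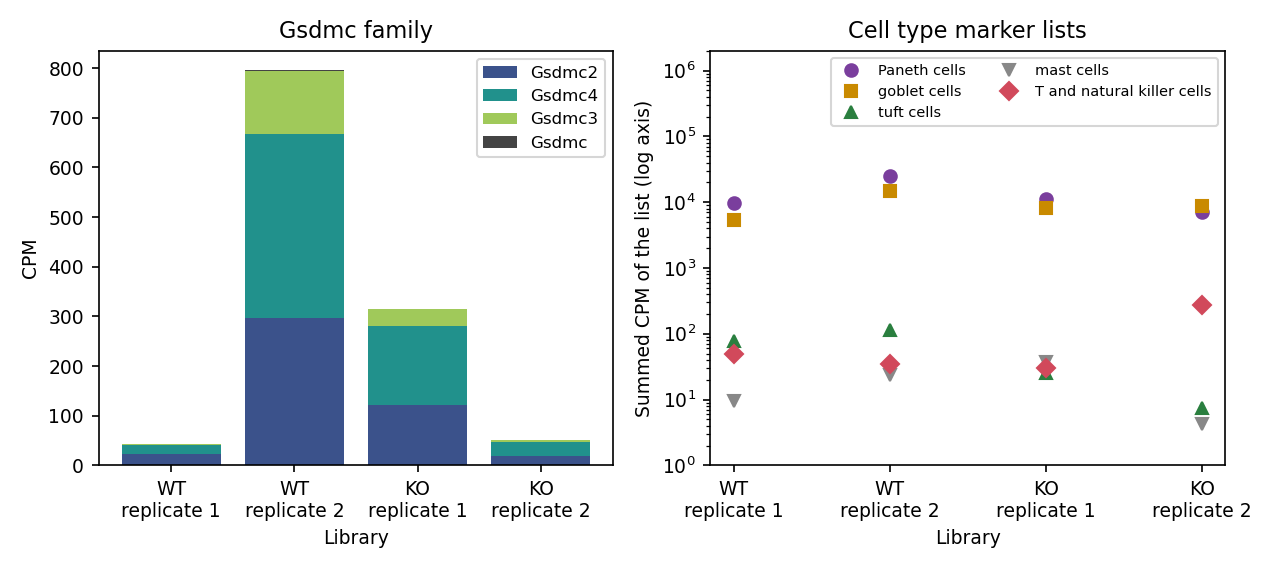
Left, CPM of the 4 gasdermin C genes stacked by library. Right, summed CPM of marker lists (log axis) for 5 other cell types in the same libraries. The gasdermin C sum is 795 CPM in WT replicate 2 and 43.8 to 316 CPM elsewhere, and the Paneth, goblet and tuft sums are also highest in WT replicate 2.

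Several marker lists also had their highest level in WT replicate 2. Paneth cell markers summed to 9573, 25055, 11009 and 7180 CPM, goblet cell markers to 5269, 15026, 8202 and 8635 CPM, and tuft cell markers to 77.6, 114, 25.6 and 7.43 CPM. Mast cell markers summed to 9.37, 23.2, 37.6 and 4.23 CPM and, like gasdermin C, were higher in WT replicate 2 and KO replicate 1 than in the remaining libraries. Within the tuft list 6 of 6 tested were lower in KO (median log2 fold change -2.35). In 5 of them both KO libraries were below both WT libraries (24.6% of all genes). The exception, Dclk1, was at 7.64, 33.3, 9.90 and 0.681 CPM. Avil, at 55.1, 23.0, 6.28 and 3.27 CPM, made up most of the tuft sum in WT replicate 1. edgeR called 0 tuft markers, with 5 lower at an unadjusted p under 0.05 (8.69% of all genes). DESeq2 called 3 lower (3.32%), Avil (adjusted p = 4.1e-06), Ptgs1 (0.0011) and Trpm5 (0.0437). Single markers of gut position also set WT replicate 2 apart. Fabp6, the bile acid binding protein gene of the ileum, was at 422, 2453, 894 and 118 CPM, in the same order over the libraries as Gsdmc2. Gsdmc4 and the gasdermin C sum differed from it in being lowest in WT replicate 1 rather than KO replicate 2. Gata4, whose product specifies jejunal identity, was at 134, 27.3, 156 and 165 CPM, and Lct, the lactase gene, was at 517, 159, 677 and 908 CPM, both lowest in WT replicate 2. The part of these cell types and of gut position in the gasdermin C levels was not tested. Of the type 2 response list, the cytokine genes Il4 and Il13 were listed in no library, and Il5 and Il25 had at most 4 and 2 counts. Retnlb, which encodes a goblet cell protein of type 2 responses, had 8, 54, 12 and no listed counts, again highest in WT replicate 2. Il13ra1, a chain of the interleukin-13 receptor, was higher in both KO libraries, at 112, 130, 188 and 176 CPM (edgeR adjusted p = 0.273), and Stat6 and Il4ra had log2 fold changes of 0.18 and -0.07.

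Around the members, 91 other genes of 8 pathway lists, also chosen with earlier results of these data known, were listed and 77 tested. None passed in edgeR, where the unadjusted p was under 0.05 for 16 higher (7.08% of all genes) and 7 lower (8.69%). DESeq2 called 12 higher (1.82% of all genes) and 4 lower (3.32%). The same shares over all genes apply to the counts of each list below. Of the 12 called higher by DESeq2, 10 were on the interferon list.

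Necroptosis triggers and death receptors split into 10 higher and 4 lower of 14 tested (median log2 fold change 0.28). edgeR called 0 of them, 1 was higher at an unadjusted p under 0.05, and DESeq2 called the same gene. It was Zbp1, the sensor of Z-form nucleic acids that binds RIPK3 without RIPK1, at 4.75, 12.5, 73.8 and 102 CPM. Zbp1 was 10.1-fold higher in KO (log2 fold change 3.34, SE 0.49, edgeR adjusted p = 0.105, DESeq2 adjusted p = 2.8e-09). Like Mlkl, it was highest in KO replicate 2. The tumour necrosis factor receptor genes Tnfrsf1b (13.6, 14.1, 20.2 and 22.2 CPM) and Tnfrsf1a (137, 94.2, 171 and 141 CPM) and the death receptor gene Tnfrsf10b (17.1, 10.5, 21.7 and 19.5 CPM) were higher in both KO libraries, with edgeR adjusted p values of 0.323, 0.455 and 0.439. Tnf itself had 22 to 43 counts per library.

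Interferon signalling genes were higher in 12 of 12 tested (median log2 fold change 2.55). edgeR called 0, 10 were higher at an unadjusted p under 0.05, and DESeq2 called 10. The smallest p values belonged to Usp18, Gbp3, Bst2 and Isg15, antiviral effectors or regulators induced by interferon, with log2 fold changes of 5.11, 3.79, 3.95 and 4.63 and edgeR adjusted p values of 0.0819 to 0.105. The sum of the list was 218, 422, 993 and 899 CPM, above WT in both KO libraries, as Mlkl, Ripk3 and Zbp1 were. Between the KO libraries, the sum and Ripk3 were higher in replicate 1, and Mlkl and Zbp1 in replicate 2. T and natural killer cell markers summed to 50.05, 35.1, 30.4 and 275 CPM and were high in KO replicate 2 alone, where Mlkl and Zbp1 were highest. The part of these cells and of the interferon genes in the levels of Mlkl, Ripk3 and Zbp1 was not tested.

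Regulators of RIPK1 and RIPK3 include proteins that hold RIPK1 in its survival-promoting form, such as the ubiquitin ligase complex LUBAC. The list also holds Cyld and Spata2, whose products remove ubiquitin chains and favour cell death, and Ppm1b, whose product dephosphorylates RIPK3, so its members do not share 1 direction of action. They split into 9 higher and 7 lower of 16 tested (median 0.12), and edgeR called 0 (2 higher at an unadjusted p under 0.05, 1 by DESeq2). The LUBAC genes Rnf31 (31.3, 38.9, 68.9 and 68.4 CPM) and Sharpin (52.0, 54.4, 74.1 and 72.9 CPM) had the smallest p, with log2 fold changes of 0.97 and 0.47 and edgeR adjusted p values of 0.185 and 0.30. Rnf31 was the gene called by DESeq2 (adjusted p = 0.0188). Otulin, which trims the linear chains LUBAC builds, had a log2 fold change of 0.58, and Tnfaip3, which encodes the ubiquitin editor A20, had -0.50.

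**Figure D4:**
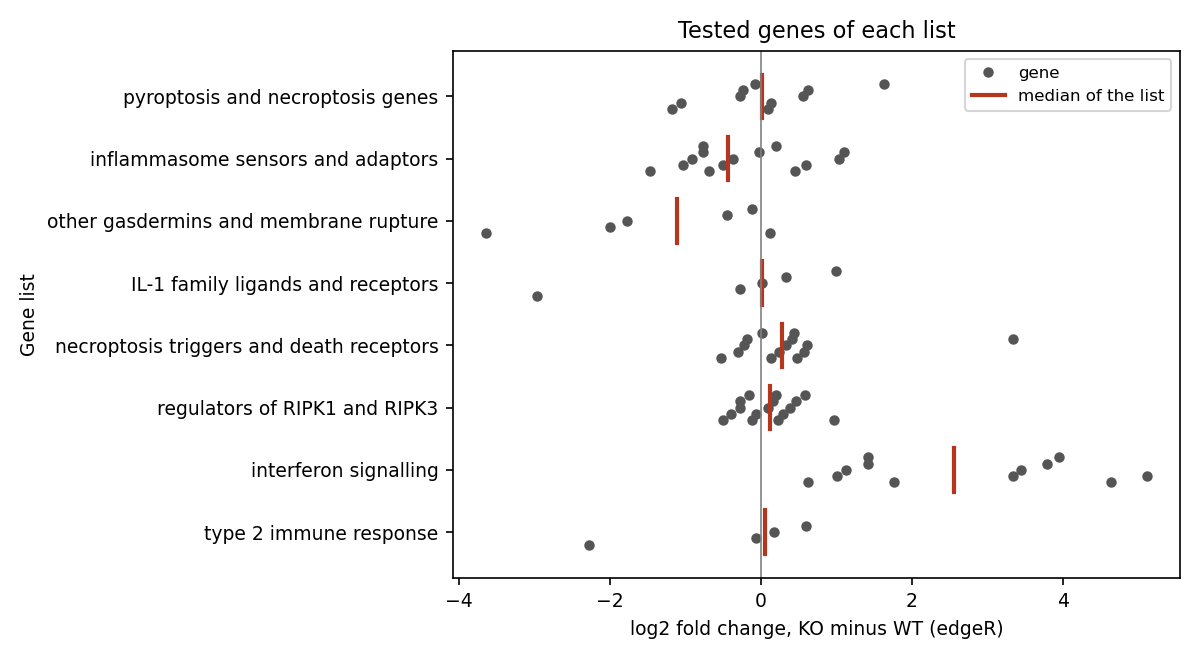
log2 fold change of KO over WT in edgeR for each tested gene of the members and 7 other pathway lists, with a red bar at the median of each list and a grey line at the median of all genes. The interferon list stands apart with a median of 2.55, and single genes reach beyond the rest in the trigger list (Zbp1, 3.34) and among the members (Mlkl, 1.63).

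Inflammasome sensors and adaptors split into 5 higher and 9 lower of 14 tested (median log2 fold change -0.43). edgeR called 0, the unadjusted p was under 0.05 for 1 higher and 4 lower, and DESeq2 called 2 lower. These 4 lower genes were the receptors for bacterial flagellin and secretion system proteins: Naip1 (224, 215, 93.7 and 139 CPM), Naip2 (129, 155, 79.5 and 96.6 CPM), Naip5 (241, 325, 91.0 and 186 CPM) and Naip6 (464, 556, 94.9 and 274 CPM). All were lowest in KO replicate 1, and edgeR adjusted p values lay between 0.235 and 0.292. DESeq2 called Naip1 (adjusted p = 0.0389) and Naip6 (0.0424). These genes are similar copies, and 4.45% to 10.9% of their 100-base stretches occur in another of them. Summed, they were at 1058, 1251, 359 and 695 CPM, a log2 fold change of -1.13 (edgeR adjusted p = 0.271). Nlrc4, their partner, had a log2 fold change of -0.50.

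Pycard, the ASC adaptor gene, went the other way at 147, 213, 501 and 232 CPM (log2 fold change 1.03, edgeR adjusted p = 0.317), the 1 higher gene by unadjusted p, with most of the difference in KO replicate 1. Nlrp6, a sensor gene of intestinal epithelium, was at 316, 428, 633 and 496 CPM (0.60, adjusted p = 0.363 in edgeR). Nlrp3, the sensor best known from macrophages, had 1 count in each WT library and was not listed in KO, and Mefv had at most 2 counts.

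Other gasdermins and membrane rupture genes split into 1 higher and 5 lower of 6 tested, and the median of -1.11 includes Gsdmc and Gsdmc3 of the cluster above. edgeR called 0, with 2 lower at an unadjusted p under 0.05, and DESeq2 called 1. It was Gsdme, listed under its older symbol Dfna5, which encodes gasdermin E, another pore-forming protein. Dfna5 was at 60.2, 118, 27.9 and 16.8 CPM, so that KO held 25.1% of the WT level (log2 fold change -1.99, SE 0.41, edgeR adjusted p = 0.18, DESeq2 adjusted p = 3.8e-04). The summed tuft cell markers, at 77.6, 114, 25.6 and 7.43 CPM, had the same order over the libraries. Most of that sum in WT replicate 1 was Avil, at 55.1 CPM, and Dclk1 did not have this order. The part of tuft cells in the level of Dfna5 was not tested. Gsdma was at 7.89 CPM in WT replicate 1 and at most 0.779 CPM in the other libraries. Gsdmc3 had a log2 fold change of -1.78 and followed Gsdmc2 and Gsdmc4 over the libraries. Ninj1, which ruptures the membrane after the pores have formed, had -0.12.

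Of other caspase genes, Casp9, which starts the mitochondrial route of apoptosis, was at 34.1, 32.8, 26.1 and 20.9 CPM, lower in both KO libraries (log2 fold change -0.51, edgeR adjusted p = 0.34). Casp12, of the same caspase subfamily as Casp1 and Casp4, was at 2.50, 3.18, 0.888 and 1.77 CPM (log2 fold change -1.09, edgeR adjusted p = 0.45).

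Of the IL-1 family 12 genes were listed and 5 passed the filter on low counts. Of the 7 that did not, Il1a and Il1b had at most 10 counts in any library, and the receptor genes Il1r1 and Il1rl1 had 41 and 44 counts in WT replicate 1 and at most 2 and 8 in the others. Of these 5, 3 were higher and 2 lower (median 0.02). edgeR called 0, with 1 lower at an unadjusted p under 0.05, and DESeq2 called 1 lower. Il18bp, which encodes a secreted inhibitor of interleukin-18, was at 3.98, 6.55, 9.15 and 11.9 CPM (2.0-fold, edgeR adjusted p = 0.327), higher in both KO libraries. The chains of the interleukin-18 receptor, Il18r1 and Il18rap, had at most 12 and 6 counts. Il1rn, the interleukin-1 receptor antagonist gene, was the 1 called lower by DESeq2 (adjusted p = 0.013), with 31.4 CPM in WT replicate 1 and 1.78 to 4.48 CPM in the other libraries. Fibroblast markers (12.3, 1.82, 1.43 and 2.73 CPM) and endothelial markers (41.3, 1.82, 1.23 and 2.25 CPM) were also highest in WT replicate 1. Most of that endothelial sum was Cdh5, at 35.6 CPM. The part of these cells in the levels of Il1rn, Il1r1, Il1rl1 and Gsdma was not tested. Il33 and Il1rap had log2 fold changes of 0.33 and -0.28.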

How the data were processed

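Each deposited table holds RSEM expected counts per gene for 1 library and, per the file headers, FPKM. The authors' FPKM are scaled to transcript length and library size, and genes under 0.01 FPKM are not listed. Bowtie2 2.2.5, RSEM 1.2.12 and the build mm10 appear, with no role, in the submitters' processing notes. Whether counting used strand is not stated there or in the labels. Tables were joined on Entrez identifiers (pandas 2.3.3). Of 191 list memberships 186 matched. A row without a gene, at most 0.000233% of counts per library, was left out.

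Expected counts were rounded, and a gene not listed was set to 0. The test of KO against WT was the quasi-likelihood test of edgeR 4.0.16 under R 4.3.3 (TMM scaling, filterByExpr, genotype as the only term, Benjamini-Hochberg adjustment over all 12769 genes). The SE is the log2 fold change divided by the square root of F, and the 95% interval uses the test's degrees of freedom. The common biological coefficient of variation was 32.5%. In simulated data of this design, 1 of 50 genes changed 2-fold, 31 of 50 changed 4-fold and 46 of 50 changed 16-fold were called, with 19 false calls among 12353 genes. No label says that libraries come from separate animals. Within each genotype, however, the 2 libraries differed in Xist and in Ddx3y (0, 39.1, 0 and 33.3 CPM), so they were not repeats of 1 RNA sample. The p values reflect library-to-library spread, which includes this difference.

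Alternatives were other scaling and filters, DESeq2 1.42.0, limma 3.58.1 on log2 FPKM with a pseudocount of 1 or 0.1, a block for replicate number, omission of each library in turn with the same genes tested, and gasdermin C copies summed. Members and lists were chosen with earlier results of these data known. All 10 members are named, with the genes of each other list that were called or had up to the 4 smallest p values. Beyond this, Strap, Ifi44, genes behind low counts or DESeq2 calls, and the remaining genes given with values were named after their values were seen. Some genes of the list of other caspases are not reported here.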

Additional observations from a re-analysis of the deposited data

How the results depend on the processing

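Under every alternative edgeR or limma called 0 members in either direction, and DESeq2 called 1 higher, Mlkl. Mlkl, Ripk3, Il18 and Casp8 kept their direction in all 14 alternatives run for each. With 1 library left out, log2 fold changes ranged from -0.23 to 0.60 for Casp1, -0.81 to 0.68 for Casp4, -3.06 to 1.69 for Gsdmc2, -2.81 to 2.33 for Gsdmc4, -0.39 to 0.30 for Gsdmd, -0.040 to 0.23 for Ripk1 and -3.05 to 2.06 for the gasdermin C sum. Without WT replicate 1 the log2 fold change of Casp1 turned to -0.23 and that of Gsdmd to 0.30, and without KO replicate 1 that of Gsdmd was 0.01. Without WT replicate 2 Casp4 turned to 0.68, Ripk1 to -0.040, Gsdmc2 to 1.69, Gsdmc4 to 2.33 and the gasdermin C sum to 2.06. In these fits the lone library of a genotype takes its spread from the other genotype.

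Over all genes, 1 was called higher and 0 lower. The counts higher and lower were 0 and 0 with library size alone and with limma on either scale, 19 and 8 with no filter, and 233 and 424 with DESeq2. With 1 library left out they ranged from 0 to 41 higher and from 0 to 133 lower, the highest without WT replicate 2. Over all settings the median over genes stayed within -0.05 to 0.02. With the replicate number as a block 46 were called higher and 70 lower, and 0 members. Deviations of same-numbered libraries correlated at -0.12 across genes, so a crossed pairing was added after seeing the data, with 65 higher, 99 lower and 0 members. No label gives the crossed pairing, which joins libraries of unlike Xist level. Each block fit left 1 residual degree of freedom. With 2 libraries per group, few 2-fold differences could be called, and larger ones also went uncalled in edgeR, such as Usp18 at 34.5-fold.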
